A study of Mus musculus with 4 samples.

Results

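The type I interferon response genes described here were 44 genes of the 27998 measured. They were the 44 of 45 listed gene symbols that the feature tables hold. Mx2 was the symbol not found. The rule picks them by gene name. No member was among the genes used to sort cells into groups.

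Marrow of 4 chimeric mice was measured as 4 single-cell libraries, with 2 libraries of the group Idh1-WT and 2 of the group Idh1-R132H. Donor marrow of the Idh1-R132H group carried 1 allele of Idh1, the cytosolic isocitrate dehydrogenase, with the R132H change, recombined together with an EYFP reporter by 5 days of tamoxifen. EYFP+ lineage-negative donor cells were moved into fully irradiated recipients that received no supporting marrow, and marrow was taken 16 weeks after transplantation. From each mouse 4000 EYFP+ cells were sorted from each of total CD45.1+ cells, LSK cells (lineage-negative, Sca1+, cKit+) and LK cells (lineage-negative, cKit+), and all were pooled into 1 tube. The EYFP gate applied to both groups, and the design text names tamoxifen without setting the groups apart by it. The Cre driver, the age of the animals and the number of donors are not given in the sources used here. The reads count 3′ ends and do not read the R132H base, so the genotype labels were not checked from these data. Shares of cell types follow the sort and were not tested.

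Type I interferons are secreted proteins that bind a receptor made of Ifnar1 and Ifnar2. The receptor's kinases Jak1 and Tyk2 phosphorylate Stat2, which joins Irf9 in a complex that binds a DNA element with repeated GAAA blocks in front of the induced genes. The induced proteins include restriction factors that block viruses, sensors of foreign RNA and DNA, and factors such as Irf7 that raise further interferon production. In blood-forming tissue, stem cells are known to hold part of this gene set at a high level without infection, and interferon can push them into division.

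Some members' promoters carry such an element in their letters. Of the 44 members, 35 had an entry in a RefSeq table of 300-base windows around gene starts (GRCm38.p6), and 20 of these 35 (57.1%) held GAAA, any 2 bases and GAAA again on either strand, where matches may overlap. Over all symbols in that table the share was 3.99%. A match is a description of the letters and not a shown binding site. Ifitm1, Slfn2 and Irf7 had no match in their windows. The stretches below are shown because they belong to members of different roles whose levels are given later, with the matched bases in capitals and each read 5′ to 3′ on the strand of its gene. Isg15 lies at chr4:156200850-156200921 on the minus strand, Ifit1 at chr19:34640760-34640838 on the plus strand, Rsad2 at chr12:26456538-26456597 on the minus strand, Bst2 at chr8:71537562-71537627 on the minus strand, Ifitm2 at chr7:140955988-140956032 on the minus strand and Stat2 at chr10:128270251-128270310 on the plus strand. None of the stretches overlaps an annotated gene.
Isg15: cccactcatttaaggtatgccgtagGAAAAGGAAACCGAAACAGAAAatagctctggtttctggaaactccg
Ifit1: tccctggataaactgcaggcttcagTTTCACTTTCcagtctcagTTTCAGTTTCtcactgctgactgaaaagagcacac
Rsad2: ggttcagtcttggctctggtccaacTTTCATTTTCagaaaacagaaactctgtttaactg
Bst2: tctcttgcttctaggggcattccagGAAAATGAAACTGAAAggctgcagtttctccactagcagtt
Ifitm2: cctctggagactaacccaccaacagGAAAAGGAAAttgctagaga
Stat2: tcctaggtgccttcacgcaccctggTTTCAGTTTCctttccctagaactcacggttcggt
Isg15 held 3 matches that run into each other, Ifit1 held 2 and Rsad2 held 1.

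The libraries held between 40364701 and 56353466 UMIs (unique molecular identifiers, each standing for 1 captured RNA molecule). Between 3505 and 4503 cells per library passed the filters, 16280 in all, with median depths of 7228 to 8707 UMIs. Of these cells, 15264 fell into a group defined by marker genes, and 443 cell barcodes occurred in more than 1 library. Below, values are given in the order Idh1-WT 1, Idh1-WT 2, Idh1-R132H 1, Idh1-R132H 2, and a level is a gene's CPM, its UMI count per 1000000 UMIs of the cells named. Levels of 3′ counts are not divided by gene length. Ptprc, which encodes CD45, stood between 47.1 and 51.2 CPM in the 4 libraries. A gene is called where edgeR's quasi-likelihood test over all genes gave a Benjamini-Hochberg adjusted p below 0.05. An SE beside a log2 change is that change divided by the square root of the test's F value. The test's variance borrows from all genes. The SE and p therefore do not measure the spread of a gene's own 4 libraries alone.

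Without regard to genotype, the members' share of UMIs was highest in monocyte-like and neutrophil-like cells among the 14 groups with enough cells to test. Among the immature groups it was highest in stem cell-like cells. This is an order of shares and not of UMIs per cell, because depth differed between groups. Median depths in Idh1-WT 1 and Idh1-WT 2 were 1615 and 1569 UMIs in neutrophil-like and 7699 and 6229.5 in stem cell-like cells. In granulocyte-monocyte progenitor-like cells they were 19432 and 21663.5. The summed level of the 44 members in the Idh1-WT libraries averaged 9723 in monocyte-like, 6128 in neutrophil-like and 4785 in stem cell-like cells. Multipotent progenitor-like cells averaged 3405 and granulocyte-monocyte progenitor-like cells 1651, with B cell precursor-like cells lowest at 1613. Along the order of the 14 tested groups, the ranges of the Idh1-WT libraries overlapped between neighbours for megakaryocyte progenitor-like and multipotent progenitor-like cells, for T or NK-like and basophil or mast cell-like cells, and for basophil or mast cell-like and lymphoid-primed progenitor-like cells. Of the 44 members, 17 had their highest Idh1-WT level in monocyte-like cells, 10 in neutrophil-like cells and 5 each in stem cell-like and mature B-like cells.

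**Figure D1:**
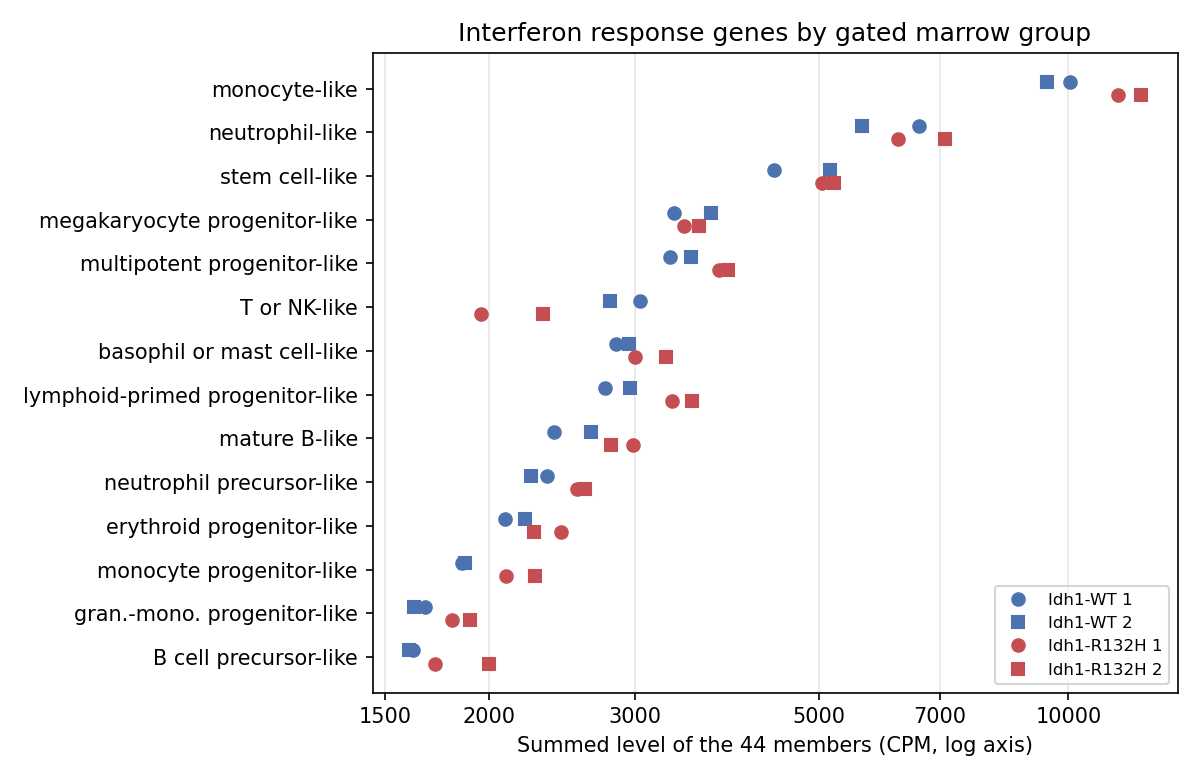
Summed level of the 44 members (x axis, CPM, log axis) in each of the 14 tested groups (rows, ordered by the Idh1-WT mean), with 1 point per library. Monocyte-like cells stand highest (9413 to 12230), and stem cell-like cells stand above multipotent and granulocyte-monocyte progenitor-like cells in every library.

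The restriction factors of the Ifitm family, membrane proteins that hinder virus entry, supplied 67.1% of all member UMIs in the Idh1-WT libraries and 65.9% in the Idh1-R132H libraries. Ifitm3 was highest in monocyte-like cells (4615 ± 200, SD, n = 2), Ifitm2 in neutrophil-like cells (1584 ± 184) and Ifitm1 in stem cell-like cells (1104 ± 275). Ifitm2, Ifitm1, Ifitm3 and Irf7 lie together on chromosome 7, and near-identical family members can share reads. Other abundant members peaked elsewhere. Ifi27l2a, a small protein of unsettled function, was highest in monocyte-like cells (1490 ± 89.3) and Slfn2, a Schlafen family member tied to immune cell quiescence, in neutrophil-like cells (557 ± 40.1). Samhd1, which degrades the building blocks of DNA, was highest in monocyte-like cells (288 ± 52.6). Ifi203, of the DNA-sensing family on chromosome 1, was highest in mature B-like cells (233 ± 11.0). Its annotated body overlaps Mndal, so its counts are uncertain. Among groups too small to test, macrophage-like cells had Idh1-WT sums of 9541 and 3624 from 9 and 17 cells, and plasmacytoid dendritic cell-like cells had the tethering factor Bst2 at 3861, 2969, 2298 and 2186, from 19 to 32 cells per library.

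**Figure D2:**
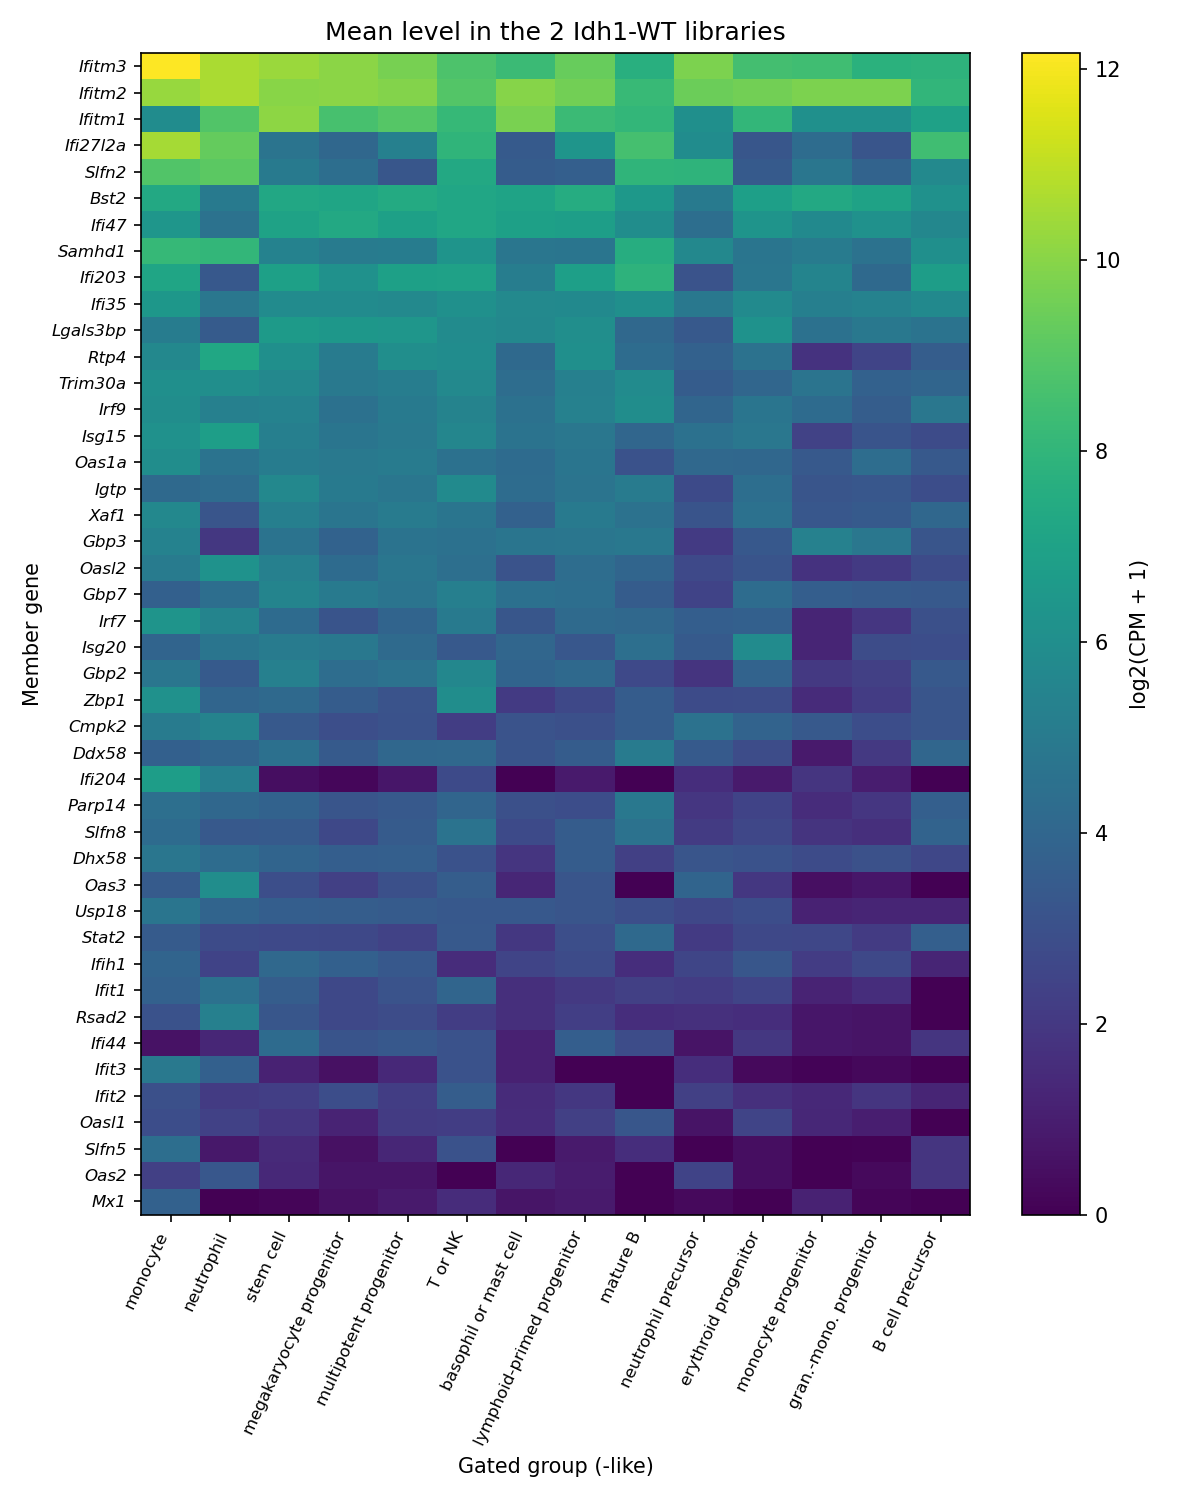
Mean level of each member (rows) in the 14 tested groups (columns) over the 2 Idh1-WT libraries, coloured by log2(CPM + 1). Ifitm3 in monocyte-like cells is the highest entry, and Slfn2 and Ifi27l2a fade in the progenitor columns.

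Stem cell-like cells were set against granulocyte-monocyte progenitor-like cells of the same libraries to ask how the members differ between these immature groups. Of 42 members tested, 38 were called higher in stem cell-like cells and 2 lower, with a median log2 difference of 1.89. Over all genes tested the median was 0.04, and 74.7% were called (38.8% higher). Ifi44, an interferon-induced cytoplasmic protein, stood at 15.4, 21.1, 21.9 and 22.4 in stem cell-like cells and at 0.566, 0.532, 0.273 and 0.638 in granulocyte-monocyte progenitor-like cells. All 4 libraries of the first group lay far above all 4 of the second, with a log2 difference of 4.94, where the second rests on 4 to 10 UMIs per library. Rtp4, a chaperone of membrane receptors, stood at 63.8, 66.9, 86.3 and 94.3 against 5.40, 3.81, 5.39 and 7.15, a log2 difference of 3.48. Rsad2 (viperin), an antiviral enzyme, stood at 8.19, 9.11, 10.1 and 12.4 against 0.628, 0.532, 0.545 and 0.830, a log2 difference of 3.59. For neither gene did the groups overlap. Ifit3, Ifitm1 and Slfn5 differed by 3.50, 3.50 and 3.14 on the log2 scale, with few UMIs behind Ifit3. The members called lower were Gbp3, a guanylate-binding protein (-0.48), and Ifitm2 (-0.09), and Bst2 and Ifi35 were not called.

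Against multipotent progenitor-like cells the members' difference was smaller. Of 41 members tested, 24 were called higher in stem cell-like cells and 1 lower, with a median log2 difference of 0.35, where 33.5% of all genes were called (16.6% higher). DESeq2 called 13 members in place of 25. Slfn2 stood at 30.7, 31.7, 26.8 and 44.5 in stem cell-like cells and at 9.98, 7.26, 6.67 and 9.80 in multipotent progenitor-like cells. Every stem cell-like value lay above every multipotent progenitor-like value, with a log2 difference of 1.94. Isg20, an exonuclease, Zbp1, a sensor of Z-form nucleic acid, Ifi44 and Ifitm1 followed with 1.10, 0.99, 0.98 and 0.95, and Igtp, an immunity-related GTPase, with 0.72. Ifi27l2a was the member called lower (-0.54).

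Monocyte-like and neutrophil-like cells, the tested groups with the highest sums, differed in which members they carried. Of 41 members tested, 14 were called higher in monocyte-like and 17 higher in neutrophil-like cells (median log2 difference 0.07), beside 55.6% of all genes called (27.5% higher in monocyte-like cells). Higher in monocyte-like cells were Ifi203 (log2 difference 2.91), Slfn5 (1.98), Gbp3 (1.96), Xaf1 (1.79), a regulator of cell death, and Bst2 (1.51). Mx1, a GTPase that blocks virus replication, also passed at 3.77, but neutrophil-like cells held 1 Mx1 UMI in 1 library and none in the others. Higher in neutrophil-like cells were Ifitm1 (-3.49), the RNA-sensing synthetases Oas3 (-3.02) and Oas2 (-1.76), Rsad2 (-2.04), Rtp4 (-1.86) and Isg20 (-1.43).

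The comparison the groups were made for sets Idh1-R132H against Idh1-WT. Many members were somewhat higher in Idh1-R132H, few by enough to pass the test. In all cells summed, the member level was 2732, 2959, 3099 and 3268, so both Idh1-R132H libraries lay above both Idh1-WT libraries, a log2 ratio of 0.16. Values in all cells, here and below, also follow the cell-type make-up, and its part was not tested. Monocyte-like cells were 3.84%, 4.88%, 5.57% and 5.89% of the cells, and neutrophil-like cells 7.48%, 7.48%, 6.40% and 6.25%. In monocyte-like cells the member level was 10034, 9413, 11482 and 12230, and in multipotent progenitor-like cells 3305, 3505, 3795 and 3883, again with no overlap. In 10 of the 14 tested groups both Idh1-R132H sums lay above both Idh1-WT sums, in 1 below, and in 3 the groups overlapped. Stem cell-like cells were among those that overlapped, at 4416, 5155, 5051 and 5213. In bulk sums such as these, fewer cells carrying a gene and less RNA per cell cannot be told apart. The 14 groups were cut from the same 4 libraries, so counts over groups, here and below, do not rest on independent observations.

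The abundant Ifitm genes weigh most in these sums, so the sums were also taken without Ifitm1, Ifitm2 and Ifitm3. The remaining members summed to 897, 976, 1020 and 1150 in all cells, to 3873, 3679, 4898 and 5679 in monocyte-like cells and to 1304, 1372, 1497 and 1552 in stem cell-like cells. Both Idh1-R132H libraries lay above both Idh1-WT libraries in each of these. Over the 14 tested groups this held for 9 without the Ifitm genes, T or NK-like cells were again lower, and 4 overlapped. Of the groups that had been higher, basophil or mast cell-like cells (680, 775, 685 and 807) and B cell precursor-like cells (1058, 928, 766 and 1071) overlapped without them, while stem cell-like cells, which overlapped in the full sum, did not.

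Counted gene by gene, 38 of 44 members had a log2 difference above 0 in all cells summed (51.4% of all genes did), and for 23 members both Idh1-R132H libraries lay above both Idh1-WT libraries (19.1% of all genes). The median member difference was 0.19. No member was called there by edgeR's quasi-likelihood test or by DESeq2, where edgeR called 0.256% of all genes, and 18 were higher (4.05% of all genes) and 1 lower at an unadjusted p below 0.05. In multipotent progenitor-like cells both Idh1-R132H libraries lay above both Idh1-WT libraries for 26 of 42 members (20.8% of all genes), in stem cell-like cells for 23 of 39 (18.6%), in monocyte-like cells for 20 of 40 (17.2%) and in lymphoid-primed progenitor-like cells for 19 of 33 (17.1%). In granulocyte-monocyte progenitor-like cells this held for 13 of 38 members (20.6%) and in monocyte progenitor-like cells for 15 of 30 (17.7%). In neutrophil-like cells the share was near that of all genes, with 5 of 24 members (20.5%) and a median of -0.11. The same was so in neutrophil precursor-like cells with 7 of 31 (18.2%). Erythroid progenitor-like cells had 9 of 35 members above and 6 below, and megakaryocyte progenitor-like cells 5 of 37 above and 5 below. Basophil or mast cell-like cells had 7 of 26 above and 2 below. B cell precursor-like cells had 3 of 12 above and 2 below, and mature B-like cells 3 of 11 above and 1 below. For these groups the share of all genes is not given here, so their counts cannot be set against it. In T or NK-like cells both Idh1-R132H libraries lay below both Idh1-WT libraries for 4 of 16 members (13.3% of all genes) and above for 0. Members share families and neighbourhoods, so they are not independent of each other.

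**Figure D3:**
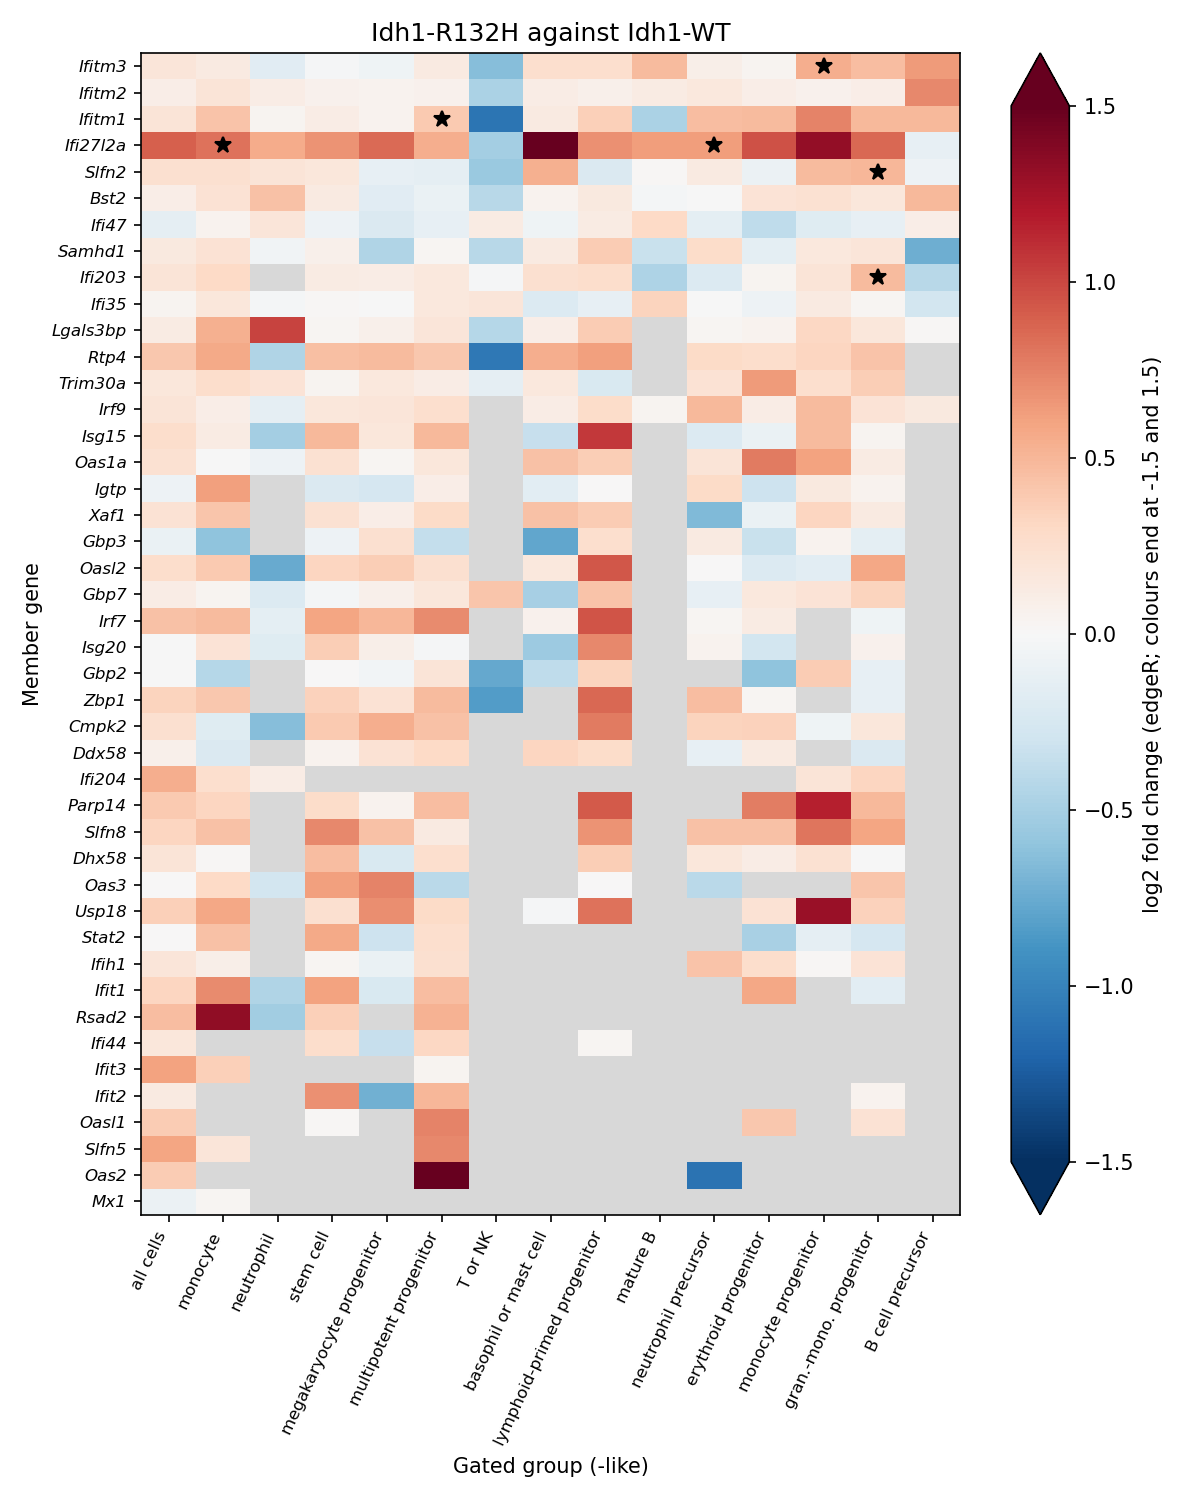
Log2 fold change of each member (rows), Idh1-R132H against Idh1-WT, in all cells and the 14 tested groups (columns), with stars where a member was called and grey where it was not tested. Most entries are above 0, 6 carry a star, and the T or NK-like column is mostly below 0.

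Called members were few. There were 6 calls over 5 members, 1 in multipotent progenitor-like cells (0.146% of all genes called), 2 in granulocyte-monocyte progenitor-like cells (0.689%), 1 in monocyte progenitor-like cells (0.0848%), 1 in monocyte-like cells (0.297%) and 1 in neutrophil precursor-like cells (0.173%). All 6 were higher in Idh1-R132H. No member was called in stem cell-like cells (0.0965% of all genes) by edgeR's quasi-likelihood test or DESeq2, with 10 higher (2.67% of all genes) and 0 lower at an unadjusted p below 0.05. Nor was any called in neutrophil-like (0.0263% of all genes), lymphoid-primed progenitor-like (0.0131%), erythroid progenitor-like (0.0564%), megakaryocyte progenitor-like (0.187%), basophil or mast cell-like (0.0428%), B cell precursor-like (0.0249%), mature B-like (0.792%) or T or NK-like cells (0.0673%) by either tool. At an unadjusted p below 0.05 in either direction, lymphoid-primed progenitor-like cells had 10 of 33 members, all higher (5.1% of all genes). The other counts were 2 of 24 in neutrophil-like (4.39%), 4 of 35 in erythroid progenitor-like (4.54%), 5 of 37 in megakaryocyte progenitor-like (6.43%), 2 of 26 in basophil or mast cell-like (5.6%), 2 of 12 in B cell precursor-like (7.9%), 1 of 11 in mature B-like (9.07%) and 2 of 16 in T or NK-like cells, both lower (3.03%).

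Ifi27l2a had the largest called difference. In monocyte-like cells it stood at 1553, 1427, 2418 and 2794, with both Idh1-R132H libraries far above both Idh1-WT libraries. The log2 change was 0.81 (SE 0.06, edgeR's quasi-likelihood test, Benjamini-Hochberg adjusted p = 2.2e-33). Cells of at least 1500 UMIs were thinned to 1500 UMIs, and shallower cells were left out of all thinned shares, here and below. Of the thinned monocyte-like cells, 72%, 69.0%, 82.9% and 82.7% had an Ifi27l2a UMI, against 85.0%, 84.8%, 87.4% and 91.6% of all monocyte-like cells unthinned. The same share after thinning was 32.9% to 52.7% in mature B-like cells, whose median depth was only 1655 to 1767 UMIs before cells were left out. The 5 richest monocyte-like cells held 14.2%, 12.0%, 7.5% and 10.2% of the gene's UMIs, so most of its UMIs came from other cells in every library. In neutrophil precursor-like cells Ifi27l2a stood at 62.3, 56.6, 80.9 and 103.8, again with no overlap, and the log2 change was 0.63 (SE 0.14, edgeR adjusted p = 0.0152). There DESeq2 gave an adjusted p of 1.0, and the thinned shares of cells, 12.7%, 6.8%, 10.2% and 14.2%, overlapped. That call was lost without Idh1-WT 1 (adjusted p = 0.0855), Idh1-WT 2 (0.21) or Idh1-R132H 2 (0.999).

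Ifi27l2a was also higher without being called in other groups. In multipotent progenitor-like cells it stood at 35.5, 40.3, 50.7 and 59.1 (log2 difference 0.54, edgeR adjusted p = 0.0514), and in monocyte progenitor-like cells at 16.4, 21.3, 34.8 and 55.0 (1.31, edgeR adjusted p = 0.116). In neither did the groups overlap.

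Ifitm3 in monocyte progenitor-like cells stood at 339, 346, 465 and 516. Both Idh1-R132H libraries lay above both Idh1-WT libraries by more than the spread within either group. The log2 change was 0.54 (SE 0.06, edgeR adjusted p = 0.000188), and the call held under all 18 alternatives run, with values of 0.44 to 0.65. Of these cells, 37.4%, 38.6%, 49.3% and 52.8% had an Ifitm3 UMI after thinning, against 15.3% to 20% of mature B-like cells. In stem cell-like cells Ifitm3 stood at 1188, 1444, 1275 and 1355, where the groups overlapped.

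Ifitm1 in multipotent progenitor-like cells stood at 481, 528, 716 and 622, with no overlap and a log2 change of 0.40 (SE 0.06, edgeR adjusted p = 0.00575). After thinning, 50.9%, 50.5%, 66.9% and 60.3% of these cells had an Ifitm1 UMI, against 3.6% to 10.8% of mature B-like cells. The 5 richest cells held between 2.6% and 4.9% of the gene's UMIs in each library. Stem cell markers in these cells summed to 259, 304, 308 and 277, so their range overlapped between the groups. With Leiden clusters in place of the gate, the Ifitm1 difference was 0.22 (adjusted p = 0.652). In stem cell-like cells, where Ifitm1 is highest, it stood at 909, 1298, 1193 and 1221, and the groups overlapped.

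In granulocyte-monocyte progenitor-like cells the called members were Ifi203 and Slfn2. Ifi203 stood at 16.9, 16.4, 24.3 and 21.6, a log2 change of 0.47 (SE 0.10, edgeR adjusted p = 0.0207). Slfn2 stood at 13.8, 13.9, 17.6 and 21.1, a log2 change of 0.50 (SE 0.11, edgeR adjusted p = 0.0382). In both genes the Idh1-R132H libraries lay above the Idh1-WT libraries. DESeq2 called neither (adjusted p = 0.303 and 0.399). Ifi203 was no longer called without Idh1-WT 1 (0.0718), Idh1-WT 2 (0.0764) or Idh1-R132H 1 (0.0754), and Slfn2 without Idh1-WT 1 (0.146), Idh1-WT 2 (0.0821) or Idh1-R132H 2 (0.391). Monocyte markers in this group of granulocyte-monocyte progenitor-like cells summed to 398, 392, 455 and 497, with all 6 detected, and so moved with genotype. Their part in the result was not tested.

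**Figure D4:**
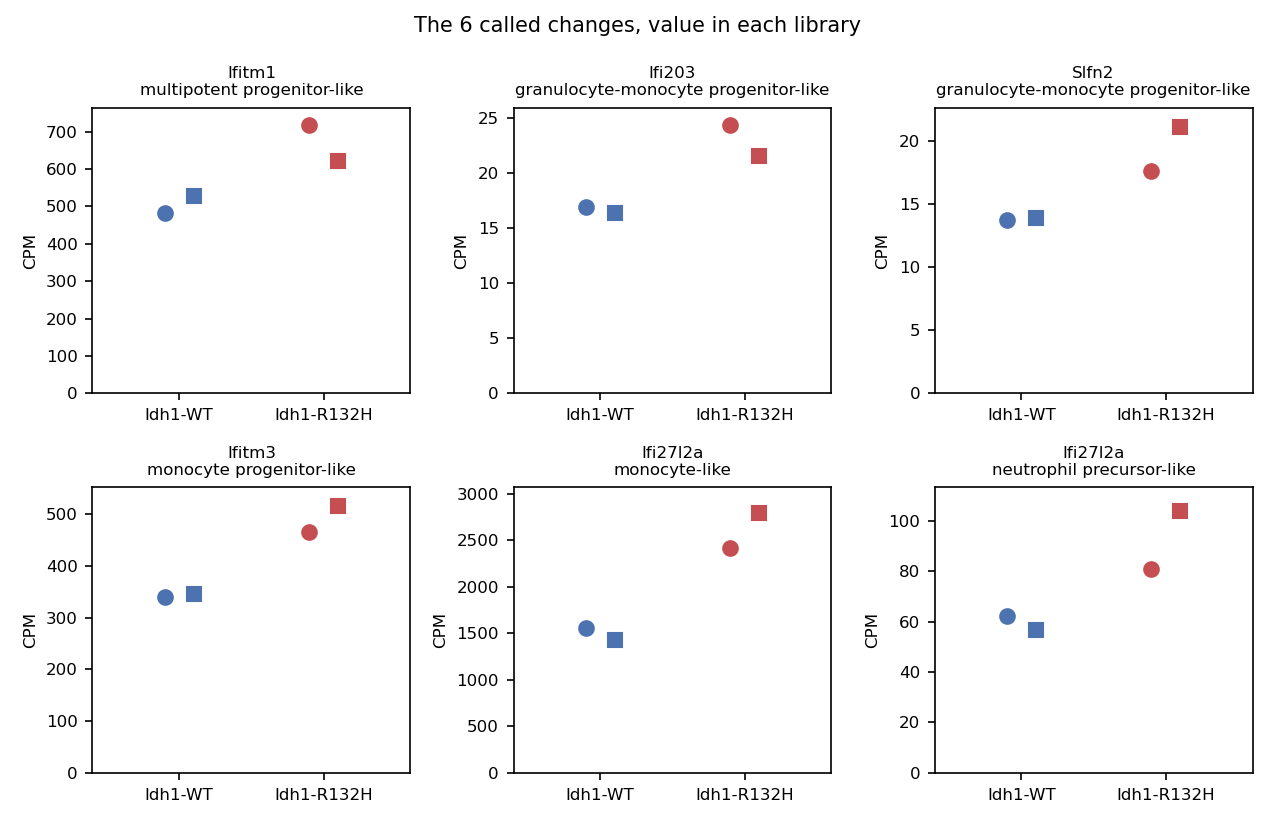
Level (y axis, CPM, from 0) of the called members in each library, 1 panel per member and group, with Idh1-WT at left and Idh1-R132H at right. In each of the 6 panels both Idh1-R132H points lie above both Idh1-WT points, from Ifi203 (16.4 to 24.3) to Ifi27l2a in monocyte-like cells (1427 to 2794).

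The regulators among the members were not called in any group by edgeR's quasi-likelihood test. Irf7, the factor that amplifies interferon production, stood at 14.0, 14.0, 19.4 and 26.8 in multipotent progenitor-like cells and at 15.4, 20.4, 27.3 and 27.1 in stem cell-like cells. Both Idh1-R132H libraries were above both Idh1-WT libraries in each, with log2 differences of 0.71 and 0.59 (edgeR adjusted p = 0.149 and 0.646). Irf9, the DNA-binding partner of Stat2, stood at 23.8, 24.8, 25.8 and 29.5 in all cells (log2 difference 0.19, edgeR adjusted p = 0.571), and Stat2 at 4.51, 5.16, 4.96 and 4.68, where the groups overlapped. Usp18, which removes Isg15 from proteins and damps the receptor, stood at 5.57, 7.20, 7.36 and 8.67 in all cells (log2 difference 0.35, edgeR adjusted p = 0.560).

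The effectors gave a like picture. Isg15, the ubiquitin-like modifier, stood at 33.3, 41.7, 49.2 and 57.2 in stem cell-like cells and at 25.9, 33.1, 38.3 and 43.1 in multipotent progenitor-like cells, with no overlap and a log2 difference of 0.49 in each (edgeR adjusted p = 0.509 and 0.211). Rtp4 in stem cell-like cells, with the values given above, differed by 0.45 (edgeR adjusted p = 0.179). Ifit1, which binds foreign RNA, stood at 4.41, 5.85, 6.24 and 6.37 in all cells and Ifit3 at 1.54, 2.12, 2.37 and 3.09, both without overlap and neither called (edgeR adjusted p = 0.608 and 0.530). Bst2 stood at 144, 152, 155 and 162 and Samhd1 at 41.4, 44.8, 45.0 and 49.8 in all cells (edgeR adjusted p = 0.649 and 0.639). Ifi47, an immunity-related GTPase, went the other way at 86.9, 87.9, 79.3 and 79.8 (log2 difference -0.13, edgeR adjusted p = 0.563).

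Some high values rested on few cells. Rsad2 in monocyte-like cells stood at 7.83, 6.69, 18.1 and 18.5 (log2 difference 1.33, edgeR adjusted p = 0.173). This was 8, 7, 23 and 30 UMIs, and the 5 richest cells held 87.5%, 100%, 78.3% and 60% of them. For the members summed, the median per cell did not overlap between the genotypes in 10 of the 14 tested groups, higher in Idh1-R132H in each. Per 10000 UMIs it was 109.8, 101.7, 126.7 and 137.3 in monocyte-like cells and 32.5, 35.0, 37.6 and 38.3 in multipotent progenitor-like cells. The groups that overlapped by this measure were stem cell-like, megakaryocyte progenitor-like, B cell precursor-like and T or NK-like cells. In neutrophil-like cells, where the sums overlapped, the medians did not (57.1, 51.3, 60.2 and 67.0).

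The libraries also differed in how many cells carried female or male transcripts, and the share with male transcripts only was higher in both Idh1-R132H libraries. Cells with UMIs of Xist, which is made in female cells, and none of Y-linked genes were 61.9%, 45.1%, 46.7% and 35.3% of all cells, and cells with Y-linked UMIs and no Xist were 4.84%, 16.5%, 22.4% and 28.7%. Among Xist-only cells the members summed to 2601, 2698, 3039 and 3191 in all cells, so the groups did not overlap. Among Y-only cells they summed to 2785, 2894, 2766 and 2871, so there the groups overlapped, with a log2 ratio of -0.01. By group, the Y-only sums of monocyte progenitor-like cells (1834, 1785, 2051 and 2230) and monocyte-like cells (7087, 9386, 10279 and 10649) kept both Idh1-R132H libraries above, but the Idh1-WT values rest on 12 and 33 and on 5 and 19 cells, while those of multipotent progenitor-like cells (3346, 3660, 3693 and 3645) overlapped. In Xist-only cells Ifi27l2a in monocyte-like cells differed by 0.76 and was not called (edgeR adjusted p = 0.151), and in Y-only cells Ifitm1 in multipotent progenitor-like cells differed by 0.12 (edgeR adjusted p = 0.940). A library labelled as 1 mouse thus holds cells of both kinds, and whether donor marrow was pooled, and so what 1 of the 2 libraries per group stands for, is not given in the sources used here. The part of this make-up in the genotype differences was otherwise not tested. The free RNA of near-empty barcodes moved with genotype too, its member sum being 3164, 3310, 3625 and 3713.

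**Figure D5:**
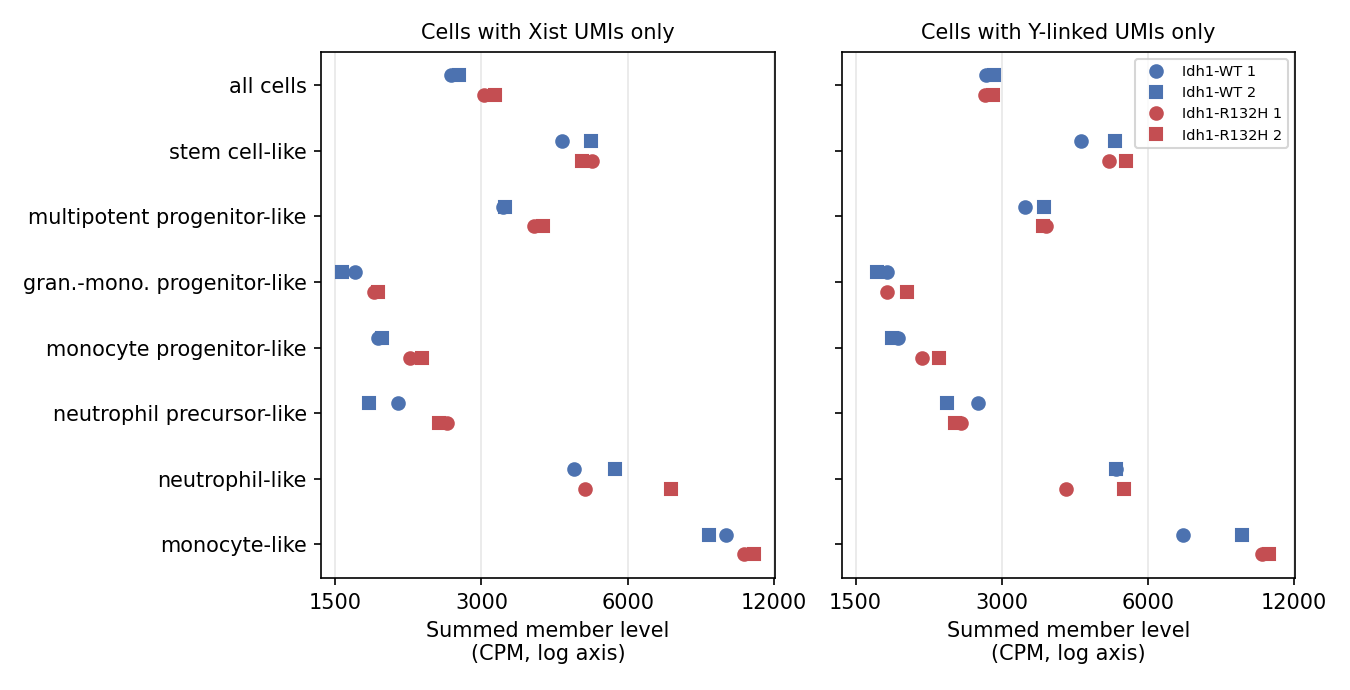
Summed member level (x axis, CPM, log axis) in all cells and 7 groups (rows), with 1 point per library, for cells with only Xist UMIs (left) and only Y-linked UMIs (right). In all cells the Idh1-R132H points lie above the Idh1-WT points at left (2601 to 3191) and mix with them at right (2766 to 2894).

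The genes upstream of the members were compared by genotype too. Of the 11 interferon ligand genes none had enough UMIs to test in any group. Ifnb1, the interferon beta gene, had 2, 0, 0 and 1 UMIs in all cells and Ifng 3, 2, 1 and 2. Ifnz, also of this list, had 2, 1, 3 and 13, higher in both Idh1-R132H libraries but on few UMIs. The other 8 ligand genes had 0 UMIs in every library. The receptor and kinase list (9 genes), the list of signal transducers and brakes (12) and the nucleic acid sensing list (16) had 0 genes called by genotype in any tested group by edgeR's quasi-likelihood test. In all cells Ifnar1 stood at 11.1, 12.6, 12.0 and 10.9 and Jak1 at 52.4, 54.9, 55.6 and 54.3, each with overlapping groups. Ifnar2 (65.5, 64.9, 70.3 and 68.8) did not overlap and was not called (edgeR adjusted p = 0.697). Of 44 further interferon-induced genes, Ly6e was called in granulocyte-monocyte progenitor-like cells, at 663, 703, 750 and 811 (log2 change 0.21, edgeR adjusted p = 0.0287).

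The upstream genes were also compared between immature groups. In stem cell-like against granulocyte-monocyte progenitor-like cells, 3 of 8 tested receptor and kinase genes were called higher and 4 lower, and 8 of 12 signal transducers and brakes were called higher and 2 lower, beside 74.7% of all genes called (38.8% higher). Jak1 differed by 1.34 and Ifnar1 by 0.57 on the log2 scale, both called higher. Ifnar2 (-0.33) and Tyk2 (-0.80) were called lower. Of the further interferon-induced genes, 29 of 37 tested were called higher and 4 lower.

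Whether the genotype difference itself differs between stem cell-like and granulocyte-monocyte progenitor-like cells was tested with a genotype by group term. Of 42 members tested 0 were called by edgeR's quasi-likelihood test or by DESeq2 (0.0684% of all genes were called by edgeR), and 7 had an unadjusted p below 0.05 (6.59% of all genes). Ifi203 had a term of -0.37 (adjusted p = 0.461) and Irf7 one of 0.67 (adjusted p = 0.667), both in edgeR's test. With 2 libraries per group an exact permutation test of a single value cannot go below p = 0.333, so none is given.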

How the data were processed

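The matrices deposited by the authors hold raw UMI counts for all barcodes of each library. Per the submitters' processing notes the tools were Cell Ranger 4.0.0 and Seurat and the genome GRCm38 (mm10). The members and gene lists were chosen with earlier results of these data known.

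A barcode counted as a cell from 500 UMIs and 200 genes on, with mitochondrial UMIs at or below 10%. Each cell was assigned to the 1 of 19 marker lists with the highest mean scaled level, with at least 2 markers detected, a minimum set after the data were seen. Names ending in "-like" rest on these markers. Doublets were kept: Scrublet called 2, 31, 5 and 73 cells. Counts were summed per library and group. The 14 groups with at least 20 cells in every library were tested with edgeR 4.0.16 (quasi-likelihood, TMM, filterByExpr, robust, R 4.3.3) without a block, and baseline comparisons with the library as a block. DESeq2 1.42.0 was an alternative. Named genes were the called members, the 10 most abundant members, 15 fixed members and up to 6 of the largest baseline differences per direction. Irf7, Isg15, Ifi27l2a, Rtp4, Rsad2 and Ifi47 in single groups were picked after their values were seen. Coordinates come from GENCODE M21 and RefSeq (GRCm38.p6).

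On simulated data the test recovered 94% of genes changed by 0.5 (log2) in all cells and 49% in multipotent progenitor-like cells. It recovered 22% in stem cell-like, 18% in monocyte-like and 5% in neutrophil-like cells. The changed genes were drawn only from those above a minimum level, so recovery of members with lower levels was not simulated. More genes were changed by genotype in the simulation than were called by genotype in any group of the data. In all cells it made 27 false calls among 13172 genes. Each library is labelled as 1 mouse. Whether mice of a group shared a donor is not given in the sources used here.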

Additional observations from a re-analysis of the deposited data

Results flagged for a closer look

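T or NK-like cells were the only one of the 14 tested groups with lower sums in both Idh1-R132H libraries. The members summed to 3047, 2797, 1960 and 2326 in Idh1-WT 1, Idh1-WT 2, Idh1-R132H 1 and Idh1-R132H 2, so both Idh1-R132H libraries lay below both Idh1-WT libraries, a log2 ratio of -0.45. In 10 other groups both Idh1-R132H libraries lay above, and in 3 the genotypes overlapped. Plasmacytoid dendritic cell-like cells, too few to test, also had lower sums in both (5837, 5902, 5745 and 5310). Their median per cell went the other way, at 59.1, 61.3, 72.5 and 63.5 per 10000 UMIs, higher in both Idh1-R132H libraries. Their 5 richest cells held 31.5%, 27.9%, 35.3% and 30.0% of the member UMIs. The difference between the groups was not tested. Of 16 members tested in T or NK-like cells, 4 were lower in both Idh1-R132H libraries (13.3% of all genes). There 0 were called by edgeR's quasi-likelihood test or DESeq2, with 2 lower at an unadjusted p below 0.05 (3.03% of all genes in either direction). The group holds 66, 62, 62 and 43 cells, and the 5 richest cells held 47.2%, 32.6%, 25.5% and 38.7% of the member UMIs. The median per cell, 15.2, 22.2, 19.1 and 18.4 per 10000 UMIs, overlapped between the groups.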

How the results depend on the processing

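The number of members called depended on the processing in most groups, while the direction of the 6 called changes held under every alternative run. Ifitm3 in monocyte progenitor-like cells passed under 18 of 18 alternatives, Ifi27l2a in monocyte-like cells under 17, Ifitm1 in multipotent progenitor-like cells under 16, and Ifi203, Slfn2 and Ifi27l2a in neutrophil precursor-like cells under 10 each. Over all results 263 values stayed within their limits and 79 moved, and the causes were not tested unless stated. The share of all genes called under each alternative is not given here. The counts of called members below therefore cannot be set against all genes.

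In all cells summed, where 0 members were called, Xist-only cells gave 1, Y-only cells 2, no filter on low counts 8, the replicate block 3, and leaving out 1 library between 0 and 3. In stem cell-like cells, also 0, leaving out the 1% of cells richest in member UMIs gave 1, no filter 2, the replicate block 2, and leaving out 1 library 0 to 4. In multipotent progenitor-like cells, with 1, a mitochondrial limit of 5%, Leiden clusters, the richest 1% left out, RLE factors and the replicate block gave 2 each, no filter 5, Y-only cells 0, and leaving out 1 library 1 to 5. In granulocyte-monocyte progenitor-like cells, with 2, a minimum of 300 UMIs, the top 4% of Scrublet scores left out, Leiden clusters and cells near the next gate left out gave 1 each, Xist-only cells, Y-only cells and DESeq2 gave 0, no filter 5, and leaving out 1 library 0 to 5. In monocyte progenitor-like cells, with 1, a minimum of 1000 UMIs, cells near the next gate left out, Xist-only cells, Y-only cells and DESeq2 gave 2 each, no filter and the replicate block 3, and leaving out 1 library 2 to 3. In neutrophil precursor-like cells, with 1, the 5% mitochondrial limit, Leiden clusters, cells near the next gate left out, Y-only cells and DESeq2 gave 0, and leaving out 1 library 0 to 1. In neutrophil-like cells, with 0, Leiden clusters gave 1 and leaving out 1 library 0 to 1. In monocyte-like cells, with 1, Leiden clusters gave 3, cells near the next gate left out 5, Xist-only cells 0, and leaving out 1 library 1 to 2. Over the other groups, with 0, the 5% mitochondrial limit gave 2, the top 4% of Scrublet scores left out 3, Leiden clusters 2, cells near the next gate left out 1, Xist-only cells 1, Y-only cells 2, no filter 5, the replicate block 5, and leaving out 1 library 1 to 9.

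Of the 25 members called between stem cell-like and multipotent progenitor-like cells, DESeq2 called 13 in number and leaving out 1 library 18 to 23. Of the 31 between monocyte-like and neutrophil-like cells, the number was 10 in Xist-only cells, 4 in Y-only cells and 27 to 30 with 1 library left out. Between stem cell-like and granulocyte-monocyte progenitor-like cells it was 38 to 40 with 1 library left out. The genotype by group term, with 0, gave 1 with no filter and 0 to 2 with 1 library left out.

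The log2 ratio of the summed level moved mainly in Y-only cells, to -0.011 from 0.16 in all cells, to 0.067 from 0.17 in multipotent progenitor-like, to 0.10 from 0.17 in granulocyte-monocyte progenitor-like, to -0.034 from 0.17 in neutrophil precursor-like and to -0.13 from 0.12 in neutrophil-like cells. The Y-only values of the last pair of groups rest on 6 cells each in Idh1-WT 1. In Xist-only neutrophil precursor-like cells it was 0.40. With 1 library left out it ran from 0.11 to 0.22 in all cells, 0.13 to 0.20 in granulocyte-monocyte progenitor-like, 0.17 to 0.29 in monocyte progenitor-like, 0.24 to 0.33 in monocyte-like, 0.13 to 0.22 in multipotent progenitor-like, 0.13 to 0.20 in neutrophil precursor-like, 0.01 to 0.24 in neutrophil-like and -0.0066 to 0.22 in stem cell-like cells.

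Libraries of the same number deviated together by correlations of only -0.06 to 0.08. These cannot decide whether libraries of 1 number were handled together, since each compares a single library per group. Scrublet called 2 and 5 cells in the Idh1-WT and Idh1-R132H libraries numbered 1, and 31 and 73 in those numbered 2. The replicate block is given for completeness. Baseline comparisons have the library as a block already. Where only a single library of a group remains, its spread is taken from the other group. Leiden clusters were named after they were seen. Recovery differed between groups, for a cause not tested: of genes changed by 1 on the log2 scale in simulated data, 19% were recovered in T or NK-like, 28% in neutrophil-like and 57% in monocyte-like cells.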
